A study of Mus musculus with 16 samples.

Results

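The erythroid genes described here are 8 genes that serve hemoglobin, heme and the red cell membrane: Hbb-bs, Hbb-bt, Hba-a2, Alas2, Slc4a1, Epb42, Rhag and Klf1. They were chosen by gene name from a table of 25054 genes, and all 8 were present in it. RNA was sequenced from 16 osteosarcomas, bone tumors that make osteoid, grown in mice older than 6 months. Every tumor came from an OsxCreERT2+/-;p53fl/fl;Rb1fl/fl mouse, in which an Osterix-driven, tamoxifen-inducible Cre recombines the floxed alleles in the osteoblast lineage. Tamoxifen was given at 1 month of age, at 400 μg per gram of body weight. The 8 KO tumors, each from its own mouse (Massa, Medusa, Montana, Ohio, Prince, Grilka, Zelda and Oregon), also carried Arid1afl/fl and have no tumor site in their labels. The 8 WT tumors lacked the floxed Arid1a allele and came from 4 mice: N43 gave a spine and a pelvis tumor, N42 gave tumors labelled R pelvis, R femur, L limb and L shoulder, N215 a R hind limb tumor and N25 a tumor labelled lung.

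Red cells form in the marrow, and in mice also in the spleen, from progenitors that switch on the erythroid factor Klf1 and then build membrane, heme and globin in large amounts. Hbb-bs and Hbb-bt encode adult beta globin chains and Hba-a2 an alpha chain. Alas2 encodes the erythroid form of the enzyme that starts heme synthesis. Slc4a1 encodes band 3, the anion exchanger that anchors the membrane to its skeleton. Epb42 encodes protein 4.2, which binds band 3, and Rhag encodes the Rh-associated glycoprotein of the same membrane complex. The nucleus is lost late in maturation, and globin and Alas2 transcripts are among those that remain in reticulocytes.

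A GATA motif and a CACCC motif are the letters that the erythroid factors GATA1 and KLF1 are known to bind, so the promoters of members were read for both. RefSeq promoters on GRCm38.p6 were found for 7 of the 8 members (not Slc4a1). In the 250 bases before the start, AGATAA or TGATAA on either strand stood in 6 of the 7 (not Hbb-bt), against 16.6% of all 32851 promoters in the table. CACCC on either strand stood in 6 of the 7 (not Epb42), against 52% of all promoters. The stretches below are those nearest the RefSeq start that lie in no GENCODE vM21 exon, for 2 globin genes, the heme enzyme, a membrane gene and the erythroid factor. Capitals mark these GATA letters and the CACCC letters, written as they read on the printed strand, so that a match on the opposite strand stands as its reverse complement. Hbb-bt is read from the minus strand at chr7:103813997-103814116, Hba-a2 from the plus strand at chr11:32296369-32296488, Alas2 from the plus strand at chrX:150547255-150547374, Rhag from the plus strand at chr17:40811006-40811125 and Klf1 from the plus strand at chr8:84901808-84901927.
Hbb-bt: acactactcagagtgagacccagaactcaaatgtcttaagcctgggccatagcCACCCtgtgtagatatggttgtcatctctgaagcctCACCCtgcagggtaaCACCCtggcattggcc
Hba-a2: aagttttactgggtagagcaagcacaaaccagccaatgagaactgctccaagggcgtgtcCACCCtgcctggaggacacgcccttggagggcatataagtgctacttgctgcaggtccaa
Alas2: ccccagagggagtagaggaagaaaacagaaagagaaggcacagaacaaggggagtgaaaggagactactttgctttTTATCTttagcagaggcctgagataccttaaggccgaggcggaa
Rhag: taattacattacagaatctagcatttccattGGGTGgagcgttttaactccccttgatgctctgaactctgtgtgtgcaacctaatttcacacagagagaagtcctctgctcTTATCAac
Klf1: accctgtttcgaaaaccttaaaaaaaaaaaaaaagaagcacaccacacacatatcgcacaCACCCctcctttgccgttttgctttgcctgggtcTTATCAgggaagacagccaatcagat
In these stretches the GATA letters stood once each in Alas2, Rhag and Klf1, and CACCC letters stood 3 times in Hbb-bt. A match describes the letters only.

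Libraries held 1109487 to 15059640 counts in KO and 7806160 to 16962329 in WT. Values are CPM, counts scaled to the library total and by edgeR's TMM factors, so that 3 counts were worth 0.146 CPM in the deepest library and 6.69 CPM in Massa, the shallowest. Whole-gene Arid1a counts did not separate the groups (107 to 270 CPM in KO, 125 to 236 CPM in WT; log2 fold change KO against WT 0.16, adjusted p = 0.715 by edgeR's quasi-likelihood test). They sum exons outside the floxed part and so do not check the deletion. Marker genes of bone were summed over a list of 14 osteoblast genes, which gave 855 to 94490 CPM, with the lowest sum in Prince. Several libraries held markers of other tissues, above all skeletal muscle in Montana and Oregon, salivary gland in Prince, and lung in Massa and in the N25 tumor.

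Of the 16 tumors 4, 1 KO and 3 WT, held most of the erythroid RNA. Zelda (KO), both tumors of mouse N43 and the lung tumor of N25 had the 4 highest levels of Hbb-bs, Hbb-bt, Alas2, Slc4a1, Epb42, Rhag and Klf1, 7 of the 8 members. The 8 genes together took 0.213% of all counts in Zelda, 0.0541% in the N43 spine tumor, 0.048% in the N25 lung tumor and 0.0358% in the N43 pelvis tumor. In the other 12 tumors their share ran from 0.000143% in Medusa to 0.00361% in Montana. In whole tumors, fewer erythroid cells and less erythroid RNA per cell cannot be told apart.

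**Figure D1:**
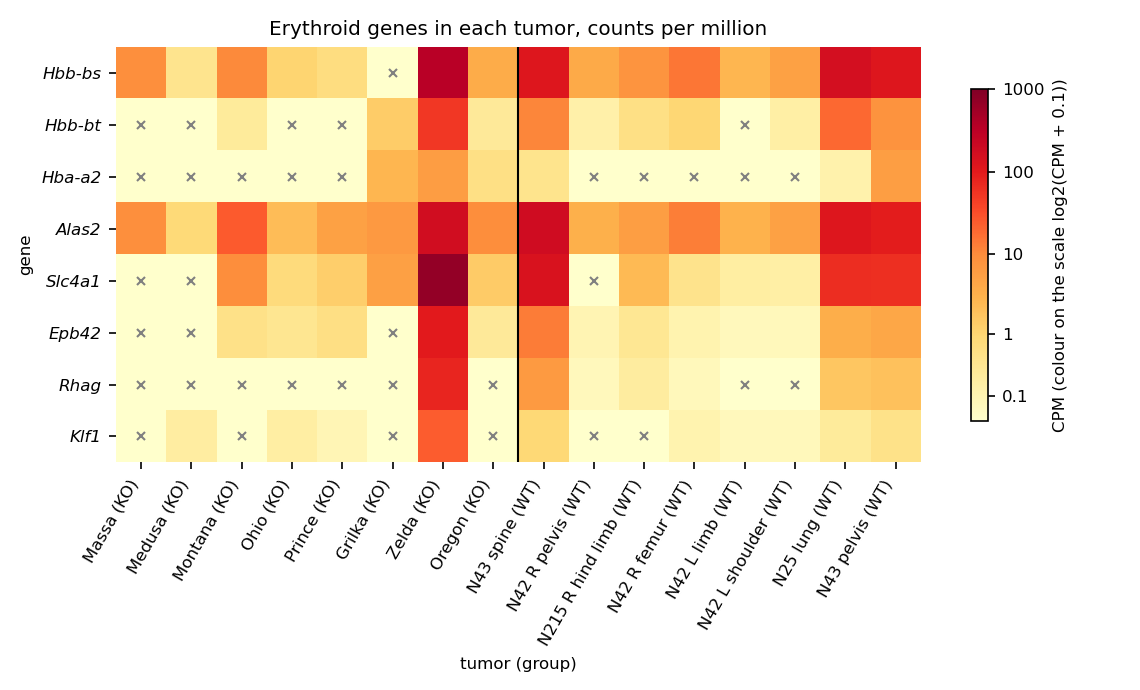
Each square is 1 gene (rows) in 1 tumor (columns, KO left of the line and WT right of it), colored by CPM on the scale log2(CPM + 0.1); a cross marks a count of 0. Zelda, both N43 tumors and the N25 tumor have the strongest color in most rows, and Zelda alone does for Klf1 (24.1 CPM).

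Among the globin genes, Hbb-bs was the most abundant. It ran from 0 CPM (Grilka) through a median of 2.34 to 336 CPM (Zelda) in the 8 KO tumors, and from 2.68 (N42 L limb) through a median of 11.5 to 155 CPM (N25 lung) in the 8 WT tumors. Its 2 values in N43 were 117 CPM in the spine and 118 CPM in the pelvis. The lowest of these 4 values was 7.64 times the fifth, 15.3 CPM in the N42 R femur tumor, and the KO and WT ranges overlapped.

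Hbb-bt, the other adult beta globin gene among the members, was highest in the same 4 tumors at a lower level. It measured 51.2 CPM in Zelda, 19.7 in the N25 tumor, 11.1 in the N43 spine and 8.02 in the N43 pelvis, and 10 of the 16 libraries held 3 counts or fewer. Hba-a2 was near the floor almost everywhere, with 86 counts in Zelda, 114 in the N43 pelvis, 8 in the N43 spine, 2 each in the N25, Grilka and Oregon tumors and 0 in the other 10. It was the member whose 4 highest tumors were not those of the others.

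Counting could lower the globin values unequally. Of the 50-base windows of each gene's transcripts (50 bases is the read length), 53.2% of those of Hbb-bs were also found in Hbb-bt, 58.3% of those of Hbb-bt in Hbb-bs, and 89.3% of those of Hba-a2 in Hba-a1. The authors kept the best of several alignments of a read, and how equally good alignments were settled is not given in the sources used here. All counts of a gene, wherever their reads fell, were then divided by its number of windows found in no other gene. Per 100 such windows, Zelda held 1477 counts of Hbb-bs, 277 of Hbb-bt, 130 of Hba-a2 and 9.48 of Hba-a1. The N25 tumor held 717, 112, 3.03 and 8.06. The split between copies is therefore uncertain, and so is the low alpha globin count.

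Alas2, for heme, was detected in all 16 tumors. It ran from 0.845 CPM (Medusa) through a median of 7.82 to 175 CPM (Zelda) in KO, and from 2.98 (N42 L limb) through a median of 9.34 to 182 CPM (N43 spine) in WT. Montana followed with 25.3 CPM, so that the lowest of the 4 high tumors stood at 3.69 times the next, against 7.64 times for Hbb-bs. Exons of Alas2 overlap the antisense gene Apex2 over 311 of 2403 exon bases (12.9%), and library strand is not given in the sources used here, so reads there cannot be assigned. Alas2 had 2.86 to 7.81 counts per Apex2 count in the 4 highest tumors and 0.0186 to 0.651 in the other 11 tumors with Apex2 counts.

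The membrane genes were more uneven than Hbb-bs and Alas2, by the share of the CPM summed over all tumors that the highest tumor held. That share was 70.4% for Slc4a1, against 42.8% for Hbb-bs and 27.7% for Alas2. Slc4a1 ran from 0 CPM (Massa and Medusa) through a median of 1.32 to 680 CPM (Zelda) in KO, and from 0 (N42 R pelvis) through a median of 1.42 to 137 CPM (N43 spine) in WT. The N25 tumor held 64.2 CPM and the N43 pelvis 62.3 CPM. Montana came next, at 9.44 CPM.

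Epb42 measured 103 CPM in Zelda, 13.5 in the N43 spine, 4.41 in the N43 pelvis and 3.49 in the N25 tumor, and at most 0.581 CPM (7 counts, Prince) in the other 12. Rhag measured 76.2 CPM in Zelda, 6.54, 1.91 and 1.68 CPM in the same 3 WT tumors, and was at 0 in the other 7 KO libraries. Zelda alone held 81.3% of the summed CPM of Epb42 and 87.9% of that of Rhag.

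Klf1, the erythroid transcription factor, stood apart in a single tumor. Zelda held 355 counts (24.1 CPM), the N43 spine 16, the N43 pelvis 10, the N25 tumor 4 and the other 12 at most 2 counts each. Zelda held 91.1% of the summed CPM, the highest share of the 8 members. Below the N43 tumors the order of Klf1 rests on 1 to 4 counts.

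The make-up of the erythroid RNA differed between the 4 tumors. Globin counts (Hbb-bs, Hbb-bt and Hba-a2 together) were lower than membrane counts (Slc4a1, Epb42 and Rhag together) in Zelda and in the N43 spine, and higher in the N43 pelvis and the N25 lung tumor. These counts are not scaled by exon length, so their ratio compares tumors and not the levels of the genes. Globin counts per membrane count were 0.457 (95% interval 0.443 to 0.472) in Zelda, 0.814 (0.77 to 0.86) in the N43 spine, 1.91 (1.79 to 2.04) in the N43 pelvis and 2.52 (2.35 to 2.71) in the N25 tumor. The intervals are exact binomial intervals, cover counting error only and do not overlap. Each tumor is 1 library, so they describe these libraries and not their sites or genotypes.

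**Figure D2:**
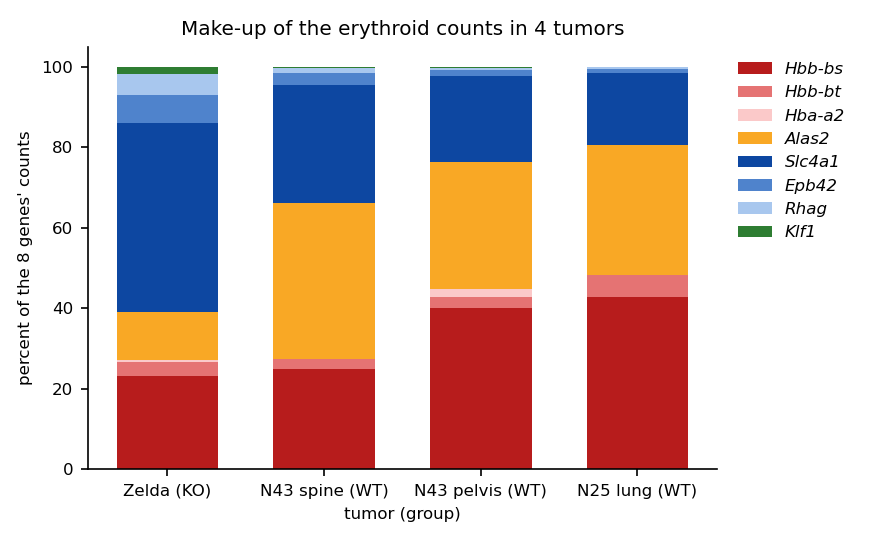
Stacked bars give the percent of the 8 genes' counts that each gene took in the 4 tumors with the most erythroid RNA. Slc4a1 took 46.8% in Zelda and 17.8% in the N25 lung tumor, and Hbb-bs 23.1% and 42.9%.

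The point values of several single-gene ratios fell in the same order of tumors, though not of all. Hbb-bs counts per Klf1 count were 13.9 (12.5 to 15.6) in Zelda, 133 (81.5 to 233) in the N43 spine, 235 (127 to 490) in the N43 pelvis and 601 (234 to 2206) in the N25 tumor. Hbb-bs counts per Rhag count were 4.41, 17.8, 61.7 and 92.4, and Slc4a1 counts per Rhag count were 8.92, 21, 32.7 and 38.3 in the same order. Klf1 and Rhag were thus most abundant relative to Hbb-bs in Zelda, whose intervals lay below those of the N43 and N25 tumors. Between the N43 pelvis and the N25 tumor the order was within counting error. Hbb-bs per Rhag had 95% intervals of 44.8 to 87.4 and 62.9 to 142 there, and Slc4a1 per Rhag 23.7 to 46.4 and 26 to 58.9. The Hbb-bs per Klf1 intervals of the N43 pelvis also overlapped those of the N43 spine and the N25 tumor. Hbb-bs against Alas2 gave another order, with the highest ratio, 1.91, in Zelda and the lowest, 0.641, in the N43 spine. Slc4a1 counts per Klf1 count were 28.2 in Zelda, 156 in the N43 spine, 124 in the N43 pelvis and 249 in the N25 tumor. There the intervals of the N43 tumors overlapped. Hbb-bt per Hbb-bs also broke the order, with 0.153, 0.0951, 0.0682 and 0.127 in the same tumors.

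Levels between genes were compared per kilobase of exon. In Zelda Hbb-bs stood at 437 CPM per kb, Slc4a1 at 139, Alas2 at 73, Hbb-bt at 72.8, Rhag at 32.6, Epb42 at 19, Klf1 at 15.7 and Hba-a2 at 8.74. In the N25 tumor the values were 202 for Hbb-bs, 48.6 for Alas2, 28 for Hbb-bt and 13.1 for Slc4a1, with Epb42, Rhag, Klf1 and Hba-a2 all at or below 0.717. Hbb-bs led in both, and Slc4a1 fell from the second place to the fourth.

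The tumors of mouse N42 combined some globin with almost no membrane RNA. Their globin counts were 83 (R pelvis), 286 (R femur), 53 (L limb) and 92 (L shoulder), beside 3, 11, 5 and 4 membrane counts. That made 26 globin counts per membrane count in the R femur (14.3 to 52.7), 10.6 in the L limb (4.27 to 34) and 23 in the L shoulder (8.68 to 86.2), with lower bounds above the 2.52 of the N25 tumor. Against 3 membrane counts the R pelvis ratio was 27.7 (9.14 to 137). The N215 tumor had a lower ratio of 2.81 (1.77 to 4.58).

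Globin and Alas2 counts were closer to each other in those tumors. Globin counts per Alas2 count were 1.25 in the N42 R femur, 0.898 in the L limb, 1.02 in the L shoulder and 1.46 in the N215 tumor. In the 4 tumors rich in members they ran from 0.704 in the N43 spine through 1.41 in the N43 pelvis and 1.5 in the N25 tumor to 2.24 in Zelda. In the 4 KO tumors other than Zelda with at least 8 globin counts (Montana, Ohio, Prince and Oregon) the point ratio was lower, from 0.125 in Prince to 0.478 in Ohio. Those 4 libraries held 8 to 42 globin counts and 6 to 39 membrane counts. The 95% intervals of Ohio (0.21 to 1.02) and Oregon (0.243 to 0.876) included the 0.704 of the N43 spine. That of Montana (0.288 to 0.614) met that of the N42 L limb (0.608 to 1.32), and Prince had 0.0518 to 0.261. Massa and Medusa, with 4 and 2 globin counts and no membrane count, and Grilka, with 3 and 4, held too few counts of these genes to compare ratios. Massa and Grilka were the shallowest libraries (1109487 and 1812818 counts), while Medusa held 4884181 counts.

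**Figure D3:**
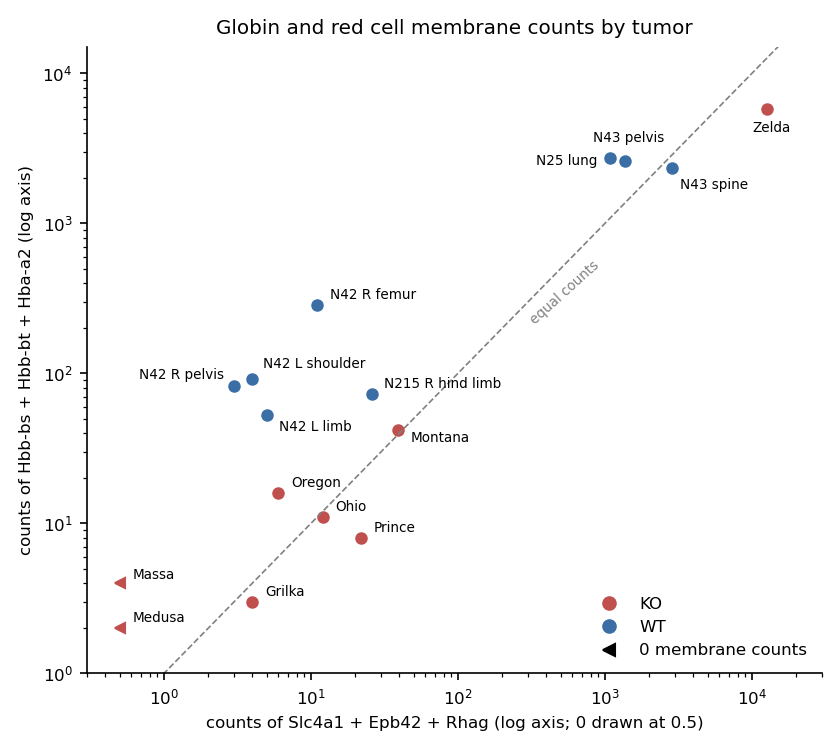
Each point is 1 tumor, with its summed membrane counts (x) against its summed globin counts (y), both on log axes, red for KO and blue for WT; the dashed line marks equal counts and triangles mark 0 membrane counts. The 4 N42 tumors sit far above the line at 3 to 11 membrane counts, and Zelda sits below it at 12666. Counts are not scaled by exon length.

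Whether loss of Arid1a moved these genes was asked in the comparison of 8 KO with 8 WT tumors, and no member was called. The filter on low counts let 3 members pass, and 0 of them passed an adjusted p of 0.05, in a comparison in which 4.01% of all 15413 genes tested were called. Hbb-bs averaged 45.1 ± 117 CPM in KO and 53 ± 64.7 CPM in WT (SD over 8 tumors each), with a log2 ratio of KO to WT of −0.20 (SE 1.29, adjusted p = 0.948). Alas2 averaged 29.3 ± 59.5 against 52.8 ± 69.1 CPM (log2 fold change −0.81, SE 1.07, adjusted p = 0.693), and Slc4a1 87.2 ± 239 against 33.4 ± 50.7 CPM (1.40, SE 1.69, adjusted p = 0.662; edgeR's quasi-likelihood test with Benjamini-Hochberg adjustment throughout). Each difference of means was smaller than the larger of its 2 SDs. The other 5 members were below the filter, which requires a count of about 10 in as many tumors as a group holds.

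One tumor decided the value for the beta globin gene. Without Zelda, Hbb-bs averaged 3.59 ± 4.35 CPM in the other 7 KO tumors (highest 10.5, Montana) and was called lower in KO, with a log2 fold change of −4.03 (adjusted p = 0.0369, against 0.0369 to 0.998 over all alternatives). In that comparison 8.52% of all genes tested were called. Slc4a1 turned to −3.70 (adjusted p = 0.144) and Alas2 moved to −2.67 (0.103). DESeq2, which replaced outlying counts of 6 of the 8 members, called Hbb-bt lower in KO (−3.80, adjusted p = 0.0341), where it called 12.5% of all genes.

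An exact permutation test of the difference in mean log2 CPM, which weights each tumor alike, gave −2.54 for Hbb-bs (two-sided p = 0.103, 12870 splits) and −0.997 for Alas2 (p = 0.402). The same exact permutation test gave 0.840 as the p for Slc4a1 (−0.40). For the members under the filter the exact permutation test gave −1.40 for Hbb-bt (p = 0.333), −0.35 for Epb42 (p = 0.817), −0.69 for Rhag (p = 0.595), 0.31 for Klf1 (p = 0.893) and 0.44 for Hba-a2 (p = 0.667). With each mouse as 1 sample, 8 against 4, the exact permutation p for Hbb-bs was 0.127. WT tumors share mice, so p-values over tumors measure the spread of tumors that are not all independent. The 3 tested members were among the most variable genes of the table: their biological coefficients of variation were 163% (Hbb-bs), 133% (Alas2) and 218% (Slc4a1), against 70.4% for all genes in common.

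Among the WT bone tumors, those of the spine and pelvis were set against those of the limbs. Erythroid RNA was high in the 2 N43 tumors and low in the N42 R pelvis tumor, so the 3 spine or pelvis tumors did not behave alike. Hbb-bs measured 117 (N43 spine), 118 (N43 pelvis) and 3.89 CPM (N42 R pelvis), against 15.3 (N42 R femur), 7.71 (N215 R hind limb), 5.25 (N42 L shoulder) and 2.68 CPM (N42 L limb). Slc4a1 measured 137, 62.3 and 0 CPM against 0.454, 2.38, 0.177 and 0.202 CPM in the same order. The pelvis tumors of N42 and N43, from the same labelled bone, thus lay far apart.

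**Figure D4:**
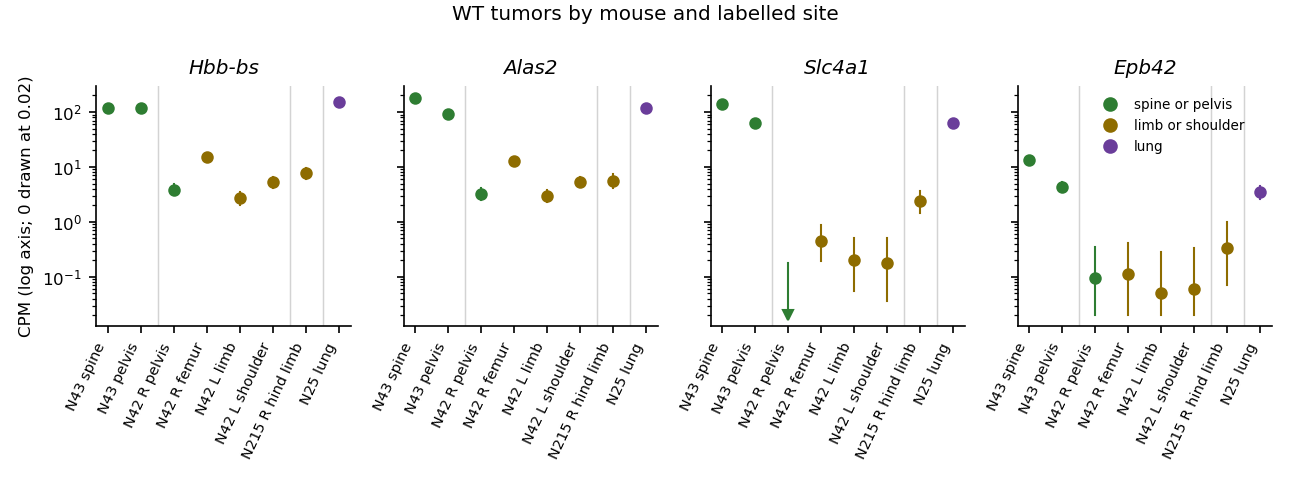
Points are CPM (log axis) of 4 genes in the 8 WT tumors, grouped by mouse between the grey lines and colored by labelled site; bars are exact 95% Poisson intervals for counting error, cut at the lower end of the axis, and a triangle marks a count of 0. The N42 R pelvis tumor sits with the limb tumors of its own mouse, far below the N43 tumors.

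In this comparison 4 members passed the filter and 0 were called, in a fit that called 0% of all 17131 genes at an adjusted p of 0.05 and held 641 genes with an unadjusted p under 0.05. Log2 fold changes, spine and pelvis over limb, were 3.38 for Hbb-bs (SE 1.02, unadjusted p = 0.0106), 3.94 for Hbb-bt, 3.80 for Alas2 (unadjusted p = 0.0078) and 6.57 for Slc4a1 (unadjusted p = 0.00826), each with an adjusted p of 0.974 by edgeR. DESeq2 called 33 genes (0.214%), among them 2 members, Alas2 (3.78, adjusted p = 0.0439) and Epb42 (5.54, adjusted p = 0.02). Within mouse N42 alone the direction turned. The pelvis tumor against the 3 limb tumors together gave a log2 fold change of −0.98 for Hbb-bs and −1.13 for Alas2. In both genes the pelvis tumor still lay above the N42 L limb tumor. Both high bone tumors came from N43, so site and mouse cannot be told apart. Exact permutation of 3 against 4 tumors gave p = 0.0857 for Epb42 and Rhag and up to 0.257 (Slc4a1) for the other members. It has only 35 splits, so its p moves in coarse steps.

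The 2 tumors of N43 differed in membrane genes, Alas2, Hbb-bt and Hba-a2 by more than counting error, while their Hbb-bs intervals overlapped. Slc4a1 was 137 CPM in the spine (132 to 143, 95% counting interval) and 62.3 in the pelvis (58.9 to 65.9), Epb42 13.5 against 4.41, Rhag 6.54 against 1.91 and Alas2 182 against 93.2. Hbb-bs was 117 (112 to 122) and 118 CPM (113 to 122). Hbb-bt was 11.1 CPM (9.62 to 12.7) in the spine and 8.02 CPM (6.83 to 9.37) in the pelvis. Hba-a2 went the other way, with 0.44 CPM in the spine and 5.72 CPM in the pelvis. There is 1 library of each, so no test was possible beyond counting error.

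In the wider erythroid lists 0 genes were called between these sites. All 16 tested genes of the red cell membrane and skeleton list had a positive log2 fold change, spine and pelvis over limb (median 1.24), as did all 16 tested red cell enzyme and maturation genes (median 0.62), beside a median of −0.01 for all genes tested. Of the heme and iron list 14 of 19 were positive (median 0.42), and of the erythroid regulators 9 of 13 (median 0.45). Some lists of other cell types were as one-sided, with 0 genes called in any list. Positive were 9 of 9 tested neutrophil granule genes (median 2.20), 12 of 12 skeletal muscle genes (1.23) and 6 of 6 megakaryocyte and platelet genes (0.72). So were 12 of 12 endothelial genes (0.53), 13 of 14 osteoblast genes (0.26), 2 of 2 liver genes (2.22) and 1 of 1 salivary gland gene (0.35). Other lists were mixed: 7 of 11 macrophage genes were positive (0.02), 6 of 10 osteoclast genes (0.11), 2 of 4 B lineage genes (−0.05) and 1 of 3 lung genes (−0.36). The part of these cell types in the erythroid medians was not tested.

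Of the wider heme and iron list, 19 of 20 genes were tested in KO against WT and 2 were called, both higher in KO, beside 4.01% called of all genes tested. Alad, the second enzyme of heme synthesis, averaged 34.5 ± 17.5 CPM in KO and 8.58 ± 4.67 CPM in WT (log2 fold change 2.01, SE 0.357, adjusted p = 0.00899). Uros, which makes uroporphyrinogen III, averaged 12.5 ± 9.43 against 2.94 ± 2.05 CPM (2.13, SE 0.5, adjusted p = 0.0259; edgeR). In Alad 7 of the 8 KO tumors lay above all WT tumors, the exception being Ohio at 15.6 CPM, below the N25 tumor at 19 CPM. Without Zelda the KO means were 28.7 ± 6.94 CPM for Alad and 9.63 ± 4.98 CPM for Uros (SD, 7 tumors).

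Limits on both calls come from the mice. With counts summed per mouse the adjusted p was 0.343 for Alad and 0.531 for Uros (edgeR, 8 against 4 mice), and without the 4 N42 tumors 0.372 and 0.557. Exact permutation over mice gave p = 0.00404 and 0.0263 for the single genes. Uros also lost its call without the WT tumors N43 spine, N42 R pelvis, N42 R femur or N42 L shoulder (adjusted p 0.053 to 0.0627), and it overlaps the gene Bccip, which lies on the opposite strand. Within each group both genes were highest in a tumor rich in members: Zelda in KO (74.8 CPM of Alad and 32.9 of Uros) and the N25 tumor in WT (19 and 7.23 CPM). In the N43 spine, where Alas2 was highest, Alad was 9.12 and Uros 3.24 CPM.

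**Figure D5:**
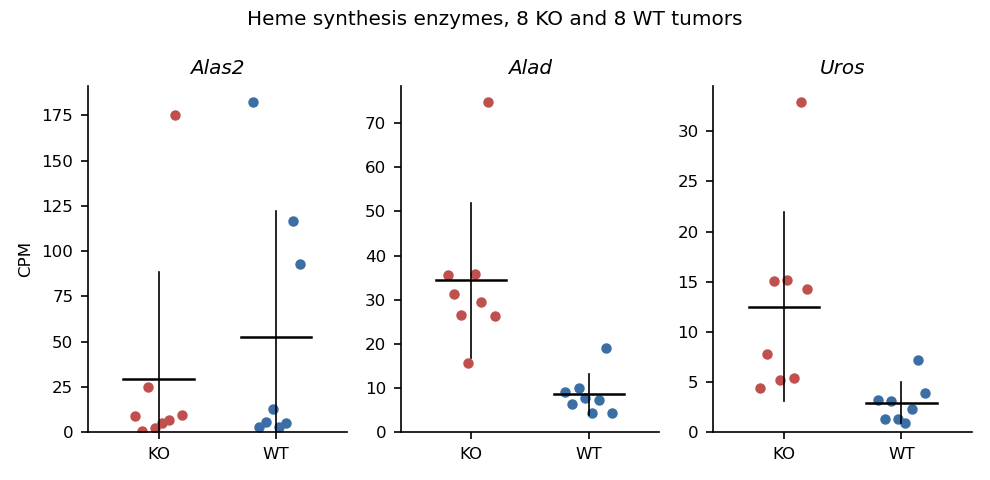
Points are tumors, horizontal lines the group means and vertical lines 1 SD (cut at 0) of CPM for Alas2, Alad and Uros in 8 KO and 8 WT tumors. The KO and WT ranges of Alas2 (0.845 to 175 and 2.98 to 182 CPM) overlap, while most KO points of Alad (15.6 to 74.8 CPM) lie above the WT points (4.36 to 19 CPM).

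The other 17 tested genes of the heme and iron list were not called, with 14 of the 19 tested having a positive log2 fold change and a median of 0.13, beside 0.10 for all genes tested. The most abundant, Tfrc, the transferrin receptor, had a median of 93.8 CPM and was highest at 722 CPM. Of the red cell membrane and skeleton list, 15 of 21 genes were tested and 0 called (11 positive, 4 negative, median 1.92, with 7 genes at an unadjusted p under 0.05). Sptb (beta spectrin) and Ank1 (ankyrin) were high in Zelda (295 and 228 CPM) but higher still in Montana (787 CPM for Sptb) and Oregon (689 and 462 CPM). Those 2 tumors also held the most skeletal muscle marker RNA (108139 and 160819 CPM over 12 genes, against at most 9595 in the others). The part of muscle in these values was not tested.

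The erythroid regulators gave 12 tested genes of 18 and 0 called, with a median log2 fold change of 0.99. Their sum was highest in Oregon (1163 CPM), then in Zelda (1081 CPM) and Montana, while the N43 spine (369) and pelvis (340) lay within the range of the tumors low in the members. Gata1, the master factor of the lineage, measured 16.7 CPM in Zelda and at most 1.48 CPM in the others, and Hemgn 113 CPM in Zelda and at most 1.87 CPM elsewhere. Of the red cell enzymes, 15 of 19 were tested and 0 called (median 0.33), and Car1 stood at 79.3 CPM in Zelda and at most 0.824 CPM elsewhere. Gata1, Hemgn and Car1 were picked for mention after their values were seen.

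Genes of heme scavenging and iron recycling were called lower in KO in 2 of 12 tested cases, beside 4.01% of all genes called in either direction. As a list they were mixed, with 5 positive and 7 negative log2 fold changes (median −0.39, beside 0.10 for all genes tested). Lrp1, the receptor for heme bound to hemopexin, averaged 440 ± 170 against 1775 ± 765 CPM (log2 fold change −2.01, adjusted p = 0.00945), and Mertk, a receptor for engulfing dead cells, 40.3 ± 21.9 against 121 ± 60 CPM (−1.57, adjusted p = 0.0313; edgeR). Macrophage markers moved with them: 10 of 11 were called, 9 lower and 1 higher in KO, and their sum ran from 184 to 551 CPM in KO and from 317 to 1849 CPM in WT. The part of macrophage content was not tested. Both calls were lost with counts summed per mouse (adjusted p = 0.334 and 0.568), and Mertk also without any of 8 single tumors, among them the KO tumors Montana, Grilka and Oregon and all N42 tumors (0.0518 to 0.0731).

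Other genes were ranked by how closely their log2 CPM followed the mean z-score of the 8 members over the 16 tumors. Among the closest were Ncoa4, the receptor for ferritin breakdown (Pearson r = 0.88), and Ermap, an erythroid membrane protein (0.86), followed by Ube2l6, Ctse, Tal1, Rb1, Tmcc2 and 9930111J21Rik1 (0.84 to 0.78). All the points share the same libraries, and the 4 high tumors set these values, so r is a description only. Ermap measured 145 CPM in Zelda, 7.47 in the N43 spine, 3.66 in the N43 pelvis and 1.61 in the N25 tumor, and at most 1.24 CPM in the other 12. Ncoa4 was less uneven, with 84.6 CPM in Zelda, 62.8 in the N25 tumor, 40.9 in the N43 spine and 39.6 in the N43 pelvis, and 20.1 to 39.3 CPM in the other 12. Without Zelda the r of Ncoa4 was 0.78, while Rb1, which all 16 tumors carry as a floxed allele, moved from the eighth place to rank 40.

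Markers of other tissues were read in the 4 tumors. Zelda held 2257 CPM over 10 liver genes, all with a count, and 876 CPM of Alb (albumin), against at most 306 CPM for the list and 20.1 CPM of Alb in the others. It also held 1595 CPM over 9 B lineage genes, against at most 477 CPM elsewhere. Over 14 neutrophil granule genes other than Mmp9, which osteoclasts also express, Zelda held 596 CPM, the N25 tumor 326, the N43 spine 57.5 and the N43 pelvis 49.2, beside 3.06 to 323 CPM in the other 12. The N25 tumor held 27084 CPM over 10 lung genes, led by Scgb1a1 at 19715 CPM. In the N43 tumors 4 of the 10 lung genes, Sftpc and Scgb1a1 among them, were at 0, and the lists of liver and B lineage lay within the range of the tumors low in erythroid RNA, except for liver in the N43 spine (164 CPM, against at most 139). The part of marrow, blood, spleen, liver or lung in the erythroid values was not tested.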

How the data were processed

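Tumor RNA was extracted with an RNeasy kit, depleted of ribosomal RNA with RiboZero, prepared with the TruSeq kit and sequenced for 50 cycles on a HiSeq 2000. Per the labels, reads were aligned to mm10 with Novoalign 2.08.01 and the processing notes name DESeq2 1.26.0. The authors deposited raw counts per gene in 1 table of 25054 genes and 16 libraries, in which no gene totals under 6 counts. The reference joined the genome to splice junctions of Ensembl transcript models, and the best of up to 50 alignments was kept for each read. How ties were settled and the strand are not given in the sources used here.

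Counts were fitted across all genes with edgeR 4.0.16 (filterByExpr with a count of 10 and a total of 15, TMM, quasi-likelihood test, two-sided, Benjamini-Hochberg threshold 0.05), without covariates. Log2 CPM used a prior count of 2. DESeq2 1.42.0, limma 3.58.1, other scalings, no filter, counts per mouse and leaving out tumors were alternatives. The exact permutation tests were added after seeing the data. Scripts were tested on simulated data. Intervals (95%) and floors (3 counts) cover counting error only. Coordinates are from GENCODE vM21 and RefSeq (both GRCm38), and 24974 genes were found in GENCODE.

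The members and gene lists were chosen with earlier results of these data known. Named genes are the 8 members, from each erythroid list at most the 5 most abundant and every gene called, the 10 genes most like the members (of which some are not reported here), and at most the 2 most abundant genes of another cell type. The labels name mice only through the tumors' titles. Gata1, Hemgn and Car1 are named outside this rule. Hba-a1 was read beside Hba-a2; embryonic globin genes and Ahsp were not analysed here.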

Additional observations from a re-analysis of the deposited data

Results flagged for a closer look

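In 16 groups of 8 log2 CPM values (8 members in KO and in WT), 5 held a highest tumor whose gap to the next, divided by the whole range of the group, exceeded Dixon's critical value of 0.526 for 8 samples. No chance rate is given for these flags. The groups share tumors, the genes were chosen with earlier results known, and many values lie at the count floor. The outlying KO tumor was Zelda for Hbb-bt (gap over range 0.617), Epb42 (0.768), Klf1 (0.837) and Rhag (1, since the other 7 KO libraries had 0 counts). In WT it was the N43 pelvis tumor for Hba-a2 (0.64), with 114 counts beside 8 in the N43 spine tumor. Zelda was not past that value for Hbb-bs, Alas2, Slc4a1 or Hba-a2.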

How the results depend on the processing

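Between 252 and 1348 genes were called in KO against WT when 1 tumor was left out at a time (618 with all 16), 2517 by DESeq2, 17 by limma-voom with mouse as a random effect, 10 with counts summed per mouse and 8 without the 4 N42 tumors. The lowest count came without WT replicate 6 (N42 L shoulder) and the highest without KO replicate 7 (Zelda). The count of members called stayed at 0 except for 1 by DESeq2 and 1 without Zelda (0 to 1 over the leave-one-out fits). Hbb-bs, at −0.20, turned to 0.26 without the N25 tumor, 0.07 without the N43 spine and 0.07 without the N43 pelvis, and stood between −4.03 and 0.26 over the leave-one-out fits. Slc4a1, at 1.40, turned to −3.31 by DESeq2, −0.64 by limma-voom, −3.70 without Zelda, −0.40 by exact permutation over tumors and −1.83 over mice (−3.70 to 2.25 over the leave-one-out fits). With library size only in edgeR the median of all genes moved from 0.10 to −0.33 and the split of calls from 287 higher and 331 lower to 72 and 495; Alad then stood at 1.63 (adjusted p = 0.0696) and Uros at 1.84 (0.113).

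For the sites, 0 genes were called in every edgeR alternative and in all 7 leave-one-out fits (0 to 0), and 33 by DESeq2, with 2 members. With mouse as a term, Hbb-bs was −0.98, Hbb-bt −1.31, Alas2 −1.13 and Slc4a1 −5.30. The −5.30 rests on 0 Slc4a1 counts in the N42 R pelvis against 3 to 8 in the N42 limb tumors. Within N42 only, Hbb-bs, Hbb-bt and Alas2 were −0.98, −1.32 and −1.13, and Slc4a1 was under the low-count filter. Log2 globin over membrane was −0.30 in the N43 spine and 0.93 in the N43 pelvis, and 0.23 with both summed per mouse; a prior count of 0.5 moved none of the 4 ratios beyond its counting interval, and scaling cancels in a ratio within 1 library. The correlation within KO and within WT was not run. No paired analysis was possible because the KO and WT tumors come from different mice. The cause of these changes was not tested. Klf1, Rhag and Hba-a2 held 3 counts or fewer in 12, 12 and 13 libraries, so their values there carry the widest counting error.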
